A study of Mus musculus with 6 samples.

Results

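The histone genes comprised every gene whose symbol begins with Hist1h, Hist2h, Hist3h, Hist4h, H1f, H2af or H3f followed by letters or digits of its own, and 84 of the 24343 genes in the tables met this rule. Of these, 68 were replication-dependent genes (symbols in Hist) and 16 were variant genes (symbols in H1f, H2af or H3f). The replication-dependent genes comprised 6 H1, 18 H2A, 19 H2B, 12 H3 and 13 H4 genes, and the variants 4 H1, 10 H2A and 2 H3 genes. Both classes were set by symbol alone, so the H2B genes take in Hist3h2bb-ps, whose symbol marks a pseudogene. RNA was sequenced from splenic natural killer (NK) cells of female C57BL/6 mice, sorted as NK1.1+ NKp46+ CD3- CD1d tetramer- cells. The mice had received cytokine complexes of IL-15 (IL-15C, 3 libraries) or of IL-2 (IL-2C, 3 libraries). The carrier, dose, interval, age and number of mice per library are not stated in the labels, and cells of untreated mice are not part of this comparison, so the cytokines are compared with each other alone. No label says that each library is from another mouse, so every p-value is set against a spread between libraries that could be technical alone.

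Histones package DNA into nucleosomes, whose core holds H2A, H2B, H3 and H4, while the linker histone H1 binds the DNA between cores. Replication-dependent genes lie in clusters, lack introns and are transcribed mainly in S phase, when new DNA is packaged. Their mRNA normally ends in a conserved stem-loop in place of a poly(A) tail, is cut after it with the help of the stem-loop binding protein SLBP, and is degraded when S phase ends. Variant genes mostly lie apart, are expressed throughout the cell cycle and as a rule give ordinary polyadenylated mRNA. Resting cells thus draw on variants such as H3.3 and H2A.Z. Some replication-dependent genes also make a longer, polyadenylated mRNA that ends downstream of the stem-loop, a form known from differentiated and non-dividing cells.

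Expression was given as FPKM, fragments per kilobase of transcript scaled to the mapped fragments of the library, a level that takes gene length into account. The deposited intervals implied 23543141 to 27229145 fragments per library, and pairs of libraries had a Pearson r of 0.990 to 0.997 between their log values, taken across genes. All 13 NK identity genes on a marker list passed the filter of a mean of at least 1 FPKM. Of these, Klre1, an NK receptor gene, fell in IL-15C and the other 12 did not pass the test. Summed B cell markers ranged from 1.14 to 10.9 FPKM in IL-15C and from 3.40 to 17.3 in IL-2C. Summed erythroid markers reached 115 FPKM in IL-15C replicate 1 and stood at 79.8 to 84.0 in the other 5 libraries. Summed myeloid markers stood at 308 to 363 FPKM in IL-15C and 256 to 288 in IL-2C, with 2 of the 7 tested genes higher in IL-15C. These were Retnlg and Itgax. Itgax, which NK cells also express, held 197 to 260 FPKM of the sum. The estimates of all 7 were positive. Neutrophil and monocyte genes were present in both groups. S100a8 stood at 12.97 to 42.6 and S100a9 at 17.2 to 46.0 FPKM over the libraries. Lyz2 stood at 12.2 to 25.5 and Cd68 at 4.11 to 5.87 FPKM. The groups overlapped in these genes and in Camp, Elane and Csf1r. They did not overlap in Retnlg, at 1.498 to 2.607 FPKM in IL-15C and 0.9227 to 1.397 in IL-2C. Nor did they in Mpo, which was too low to be tested, at 0.2724 to 0.7706 FPKM in IL-15C and 0.1485 to 0.1589 in IL-2C. Adgre1, C1qa, Cd14 and Flt3 stayed under 0.2 FPKM in every library, and no myeloid marker was at 0 throughout. Summed T cell markers stood at 54.2 to 75.2 FPKM in IL-15C and 56.1 to 60.6 in IL-2C, and none of the 4 tested genes passed. Most of this sum was Cd3g, at 30.7 to 44.6 FPKM over the libraries, and Cd3d, at 15.3 to 22.3. Cd4, Cd8a and Cd8b1 reached at most 0.0333, 0.0767 and 0.0565 FPKM. The part of other cells in the histone results was not tested.

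The annotated 3′ ends are shown first, because the 3′ end sets whether a histone mRNA carries a poly(A) tail. The longest GENCODE M21 transcript (mouse genome build mm10) of each gene was searched for GGCTCTTTT and AGAGCC with any base between them. This 16-base stem-loop was found in 32 of the 68 replication-dependent genes. It read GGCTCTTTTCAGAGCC in 25 genes, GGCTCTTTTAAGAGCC in 6 and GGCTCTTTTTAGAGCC in 1. No match was found in the 16 variants. Stem-loops with other bases, or past the end of a short transcript model, would be missed. A gene without a match, such as Hist1h4c, may therefore still have a stem-loop. Capitals mark the stem-loop in 4 genes, the first 3 being among the most abundant replication-dependent genes in these cells and the last, chosen after its values were seen, a low gene with another loop.
Hist3h2a: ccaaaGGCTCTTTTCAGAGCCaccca
Hist3h2ba: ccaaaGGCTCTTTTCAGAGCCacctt
Hist1h1c: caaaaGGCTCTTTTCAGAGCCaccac
Hist1h3e: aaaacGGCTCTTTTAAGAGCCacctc

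A poly(A) signal, AATAAA or ATTAAA, stood in the last 50 bases of a coding transcript in 17 of the 68 replication-dependent genes. These were the sites in the 5 such genes that reached a mean of 1 FPKM, with the signal in capitals.
Hist3h2a: atatgcccAATAAAataagagtacgt
Hist3h2ba: atggtattAATAAAtttggttcaatt
Hist1h1c: atgcttctAATAAAaagcgtttagtt
Hist1h4i: ctgtttacATTAAAagtattctatgc
Hist2h2be: ttattattAATAAAgttaccgattag

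Of the 17 genes with a signal, 5 reached a mean of 1 FPKM over the 6 libraries and the median of the gene means was 0.344 FPKM. Of the 51 genes without an annotated signal, 2 reached it (Hist1h4c and Hist1h2bc), and the median was 0.0535 FPKM. Some of their models are short, such as that of Hist1h4k at 312 bases, and a signal past the end of a model would be missed. Of the 32 genes with a match to the searched stem-loop 3 reached 1 FPKM, and of the 36 without a match 4 did. The medians were 0.0783 and 0.0749 FPKM. Since the search can miss stem-loops, this split cannot tell whether the level goes with the stem-loop. Among genes with a match, those that also had a downstream signal (7 genes) had a median of 0.616 FPKM and those without (25 genes) 0.0526 FPKM. None of the latter 25 reached 1 FPKM. Hist3h2a, the most abundant replication-dependent gene, has a GENCODE transcript of 2146 bases, with 1643 bases after the stem-loop. Only 508 of these bases lie inside the locus that the authors' table gives for the gene, so most of the longer form lay outside the counted region. That longer form overlaps the gene model of Trim17, which stood at 0.0915 to 0.194 FPKM. Of the 7 genes that reached 1 FPKM, 6 had a longest transcript running 100 or more bases past the authors' locus. Beside Hist3h2a these were Hist1h1c (836 bases outside), Hist1h4c (449), Hist1h2bc (428), Hist1h4i (324) and Hist3h2ba (161). These counts describe levels set beside an annotation; no test was made. The library protocol does not state whether poly(A) RNA was selected, and the tables give few values for RNAs without a poly(A) tail. Of 12 such genes 7 are listed at 0 in every library, among them Rnu11 and Rnu12, small RNAs that every cell uses, so a 0 there need not mean absence.

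**Figure D1:**
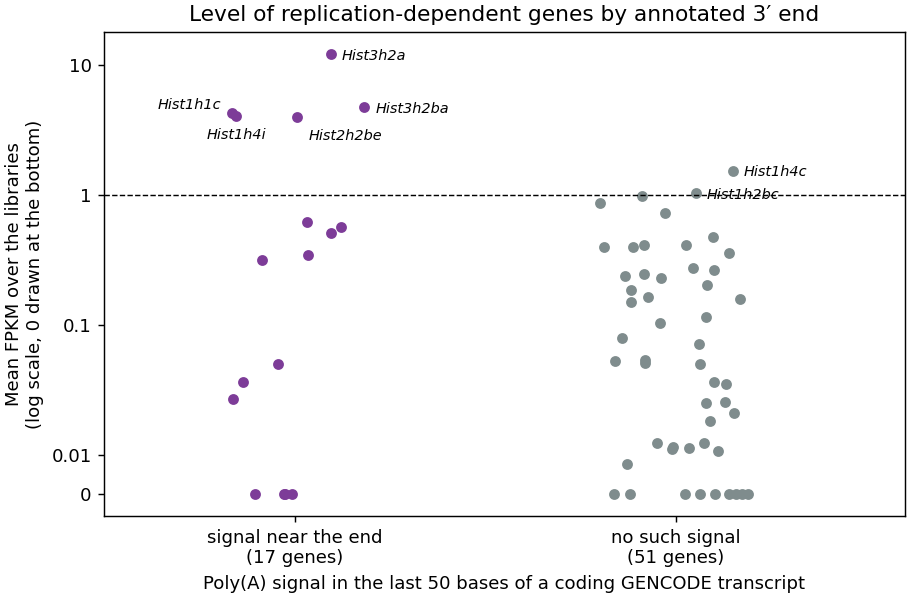
Mean FPKM over the 6 libraries (log scale, genes at 0 drawn at the bottom) for each of the 68 replication-dependent genes, split by whether a poly(A) signal stands near the end of a coding GENCODE transcript; each point is a gene and the dashed line marks 1 FPKM. Of 17 genes with a signal 5 lie above the line, and of 51 without one 2 do.

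Detection was sparse among replication-dependent genes. FPKM was above 0 for 38 to 43 of the 68 genes per library, for 27 in all 6 libraries and for 55 in any. The variants were above 0 in 10 or 11 of 16 per library, in 10 in all libraries and in 11 in any. The median of the gene means was 0.0749 FPKM for replication-dependent and 1.24 FPKM for variant genes. A mean of at least 1 FPKM, the limit for testing, was reached by 15 members, 7 replication-dependent and 8 variant. Another 51, of which 48 were replication-dependent, lay between 0 and 1, and 18 were at 0 in every library. The member just inside the limit was Hist1h2bc at a mean of 1.03 FPKM, and the one just outside was Hist1h4d at 0.978.

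Of the replication-dependent genes, Hist3h2a, Hist1h1c, Hist2h2be and Hist1h4c fell in IL-15C relative to IL-2C, and none rose. These were 4 of the 7 tested genes (limma on log2(FPKM + 1), Benjamini-Hochberg adjusted over all 9831 tested genes, threshold 0.05). The other 3, Hist3h2ba, Hist1h4i and Hist1h2bc, did not pass. Over all tested genes 464 (4.72%) were called lower and 169 (1.72%) higher; with libraries scaled to a common median the split was 207 lower and 325 higher, and of the 7 histone genes Hist3h2a and Hist2h2be were called lower. A gene near the limit can pass the filter through its higher group, as Hist1h2bc did with a mean under 1 FPKM in IL-15C and above it in IL-2C, which favours a lower estimate. In 5 of the 7, Hist1h2bc included, every IL-15C value lay below every IL-2C value, which held for 25.1% of all tested genes. The opposite, every IL-15C value above every IL-2C value, held for none of the 7 and for 8.15% of all tested genes. The median log2 change was -0.32 over the 7 genes and -0.04 over all tested genes, and all 7 estimates were negative. These 7 are not the whole class: with no filter, over the 55 replication-dependent genes above 0 in any library, the median was -0.01 with 28 negative and 27 positive estimates, and the median of all 16313 genes was -0.01. A negative change means a lower level in IL-15C, its error is the fitted standard error (SE), and log2(FPKM + 1) understates the change of low genes. The fit used FPKM and not the number of fragments behind each value. The SE and p-value can therefore be smaller than counting error alone allows, most of all in genes with few fragments. In bulk RNA, fewer cells of a type and less RNA per cell cannot be told apart.

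**Figure D2:**
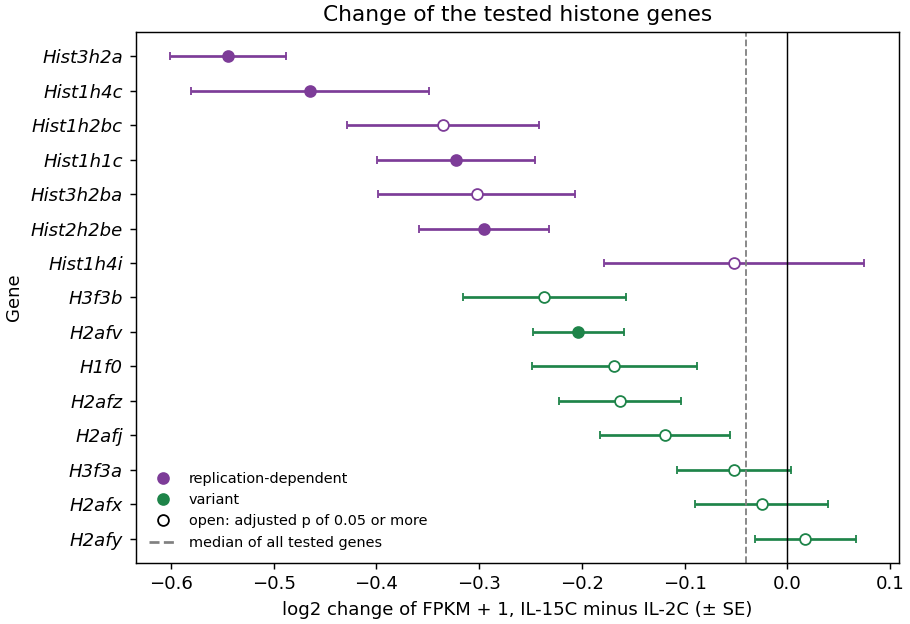
Fitted log2 change of FPKM + 1 (IL-15C minus IL-2C, horizontal axis) for the 15 tested histone genes, with bars of 1 SE; filled points have an adjusted p below 0.05, the dashed line is the median of all tested genes and the solid line 0. All 7 replication-dependent genes lie at or left of -0.05, with Hist3h2a farthest at -0.54.

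Hist3h2a encodes a core H2A from the small Hist3 cluster and lies at chr11:58954685-58955192 (mm10, plus strand). It stood at 9.94, 9.43 and 9.47 FPKM in the IL-15C libraries and at 15.7, 14.0 and 13.7 FPKM in the IL-2C libraries. The groups were widely apart: the highest IL-15C library was well under the lowest IL-2C library. The means were 9.61 ± 0.284 and 14.5 ± 1.09 FPKM (SD, n = 3), 1.51-fold higher in IL-2C. The log2 change was -0.54 ± 0.06 (SE; limma adjusted p = 0.00264), and the call held when any of the 6 libraries was left out. These levels rest on 142 to 143 implied fragments per library in IL-15C and 215 to 231 in IL-2C. The authors' deposited table of group values has overlapping intervals for this gene, at 13.1 (9.44 to 16.7) and 19.1 (14.4 to 23.7) FPKM. The group intervals overlapped for all 84 members in that table.

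Hist3h2ba encodes an H2B of the same cluster, at chr11:58948911-58949372. It measured 4.87, 3.42 and 4.09 FPKM in IL-15C and 5.53, 5.47 and 4.86 FPKM in IL-2C. The lowest IL-2C library and the highest IL-15C library nearly coincided and the groups overlapped. Its log2 change was -0.30 ± 0.10 (limma adjusted p = 0.087). Of the stretches of 50 bases in its locus 69.1% were unique among GENCODE transcripts, the others being shared mainly with Hist3h2bb-ps, so its level is uncertain.

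Hist1h1c encodes a linker H1 and lies in the large Hist1 cluster at chr13:23738807-23739531. Its IL-15C libraries stood at 3.68, 3.52 and 3.77 FPKM and its IL-2C libraries at 5.54, 4.30 and 4.69 FPKM. The IL-15C values were close together and all below the IL-2C values, among which replicate 1 was highest. The means were 3.66 ± 0.123 and 4.85 ± 0.636 FPKM (SD, n = 3), with a log2 change of -0.32 ± 0.08 (limma adjusted p = 0.0422). The call held when IL-15C replicate 1 was left out and was lost without any of the other 5 libraries.

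Hist2h2be encodes an H2B of the Hist2 cluster, at chr3:96221121-96223738, and its locus takes in a long 3′ part. It stood at 3.39, 3.73 and 3.27 FPKM in IL-15C and at 4.81, 4.32 and 4.31 FPKM in IL-2C. Again no IL-15C library reached the lowest IL-2C library. The means were 3.47 ± 0.240 and 4.48 ± 0.284 FPKM (SD, n = 3), with a log2 change of -0.30 ± 0.06 (limma adjusted p = 0.0321). It had the most fragments of the 7 genes, 289 to 342 per library in IL-15C and 413 to 445 in IL-2C, and all its 50-base stretches were unique. The call held without IL-15C replicate 1 or 2 and was lost without any of the other 4 libraries.

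The 2 tested H4 genes differed in what they showed. Hist1h4c, at chr13:23698084-23698458, measured 1.13, 1.40 and 0.865 FPKM in IL-15C and 1.96, 1.56 and 2.30 FPKM in IL-2C. The groups did not overlap, but these values rest on 8 to 13 implied fragments per IL-15C library and 16 to 25 per IL-2C library. The log2 change was -0.46 ± 0.12 (limma adjusted p = 0.0479), and the call was lost without any library other than IL-15C replicate 1. With so few fragments this SE can be smaller than counting error alone, so the call is uncertain. Hist1h4i measured 3.01, 3.995 and 4.99 FPKM in IL-15C and 4.55, 4.0 and 3.82 FPKM in IL-2C. Its IL-15C libraries spanned the whole range of the IL-2C libraries, and its log2 change was -0.05 ± 0.13 (limma adjusted p = 0.822). H4 genes encode near-identical proteins, and 53.1% of the 50-base stretches in the Hist1h4c locus and 44.6% in that of Hist1h4i were unique, so reads of these genes may have been divided among copies.

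Hist1h2bc, an H2B gene, stood at 0.831, 0.951 and 0.603 FPKM in IL-15C and at 1.26, 1.41 and 1.11 FPKM in IL-2C. No values of the groups overlapped, but the log2 change of -0.34 ± 0.09 missed the threshold (limma adjusted p = 0.062). Its locus spans a long region of chromosome 13 and 52.1% of its 50-base stretches were unique, with most of the others shared with Hist1h2bg.

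**Figure D3:**
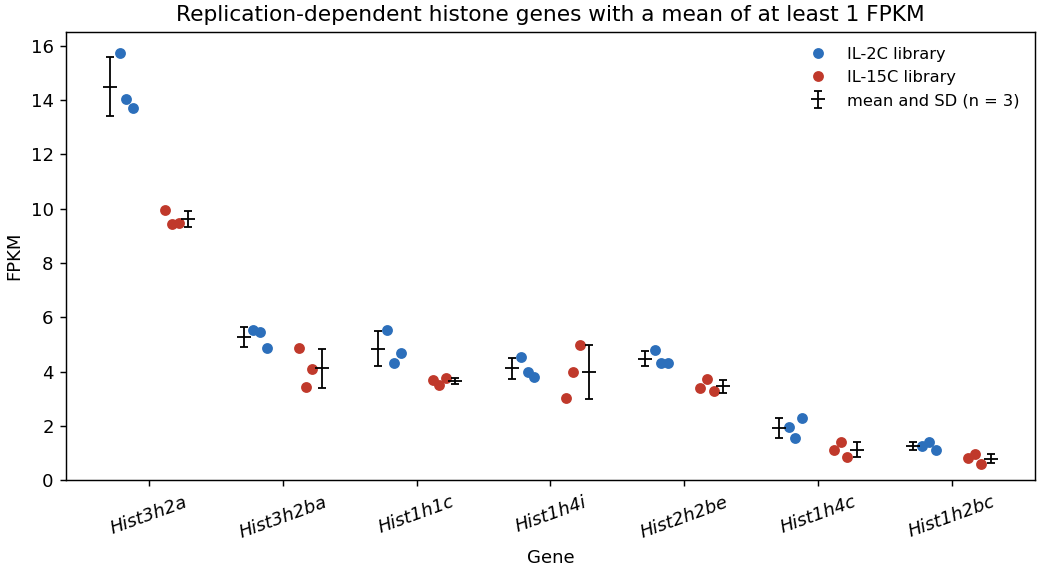
FPKM of the 7 tested replication-dependent genes in each library (points; IL-2C left, IL-15C right of each pair), with mean and SD of the 3 libraries per group. The Hist3h2a libraries sit at 9.43 to 9.94 in IL-15C and 13.7 to 15.7 in IL-2C, while the groups of Hist3h2ba and Hist1h4i overlap.

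Added over all 68 replication-dependent genes, the level was 38.6, 35.8 and 36.6 FPKM in the IL-15C libraries and 49.99, 44.6 and 46.2 FPKM in the IL-2C libraries. The sums did not overlap and their means, 37.0 ± 1.46 and 47.0 ± 2.76 FPKM (SD, n = 3), gave a ratio of 1.27. Hist3h2a alone held 25.7% to 26.3% of the sum in IL-15C and 29.7% to 31.5% in IL-2C. Without it the sums were 28.7, 26.4 and 27.1 FPKM against 34.3, 30.6 and 32.5, again with no overlap. The 61 genes below 1 FPKM added up to 10.2 ± 1.36 FPKM in IL-15C and 10.5 ± 0.945 FPKM in IL-2C (SD, n = 3). Here the groups overlapped, on 147 to 217 implied fragments per library. The separation of the sums therefore lay in the 7 genes that reached 1 FPKM, at 26.5 to 27.1 FPKM in IL-15C and 34.8 to 39.4 FPKM in IL-2C.

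By family, the H2A sum was 12.1, 10.9 and 11.4 FPKM in IL-15C and 17.6, 16.6 and 16.5 FPKM in IL-2C, which is 1.48-fold higher in IL-2C. Most of this sum was Hist3h2a. The H1 sum was 4.83 ± 0.0968 against 6.08 ± 0.678 FPKM and the H2B sum 10.5 ± 1.43 against 13.4 ± 0.877 FPKM (SD, n = 3), both without overlap. The H3 sum, 1.80 ± 0.161 against 1.499 ± 0.481 FPKM, and the H4 sum, 8.45 ± 0.739 against 9.03 ± 0.716 FPKM (SD, n = 3), overlapped. Thus the H1, H2A and H2B sums were lower in every IL-15C library, and those of H3 and H4 were not. Hist1h1c held most of the H1 sum, as Hist3h2a did of the H2A sum, so these sums mainly follow single genes and not their families. The H3 sum rests on only 18 to 32 implied fragments per library, and no H3 gene was tested. By cluster, the 10 Hist2 genes added up to 4.41 ± 0.141 against 6.34 ± 0.328 FPKM and the 3 Hist3 genes to 13.9 ± 1.15 against 20.1 ± 1.5 FPKM (SD, n = 3), without overlap. The 54 Hist1 genes added up to 18.3 ± 0.2502 against 20.2 ± 1.80 FPKM (SD, n = 3), with overlap. Sums were not tested, and whether families or clusters differ from each other was not tested either.

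**Figure D4:**
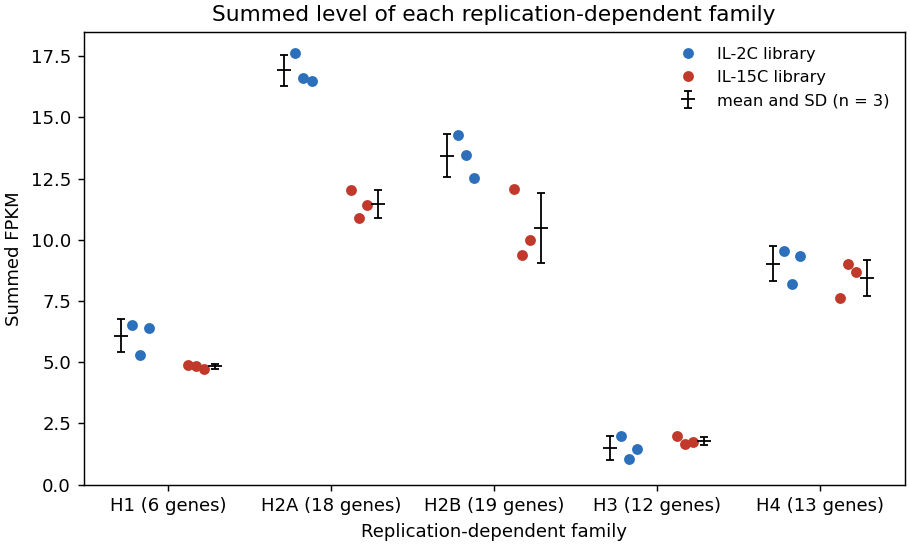
Summed FPKM per library (points) for each replication-dependent family, with mean and SD of the 3 libraries per group. The H2A sums lie at 10.9 to 12.1 in IL-15C and 16.5 to 17.6 in IL-2C, and the H3 and H4 sums overlap between groups.

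The 48 replication-dependent genes between 0 and 1 FPKM were left out of the test by the filter on the mean. The filter follows FPKM and not the number of fragments: Hist1h1e, an H1 gene named after its values were seen, had 79 implied fragments over the IL-15C libraries and 100 over the IL-2C libraries, more than the tested Hist1h4c with 31 and 58. None of the 12 H3 genes reached 1 FPKM, and the highest H3 mean was 0.725 FPKM. The 13 replication-dependent genes at 0 everywhere comprised 1 H1, 4 H2A, 3 H2B, 3 H3 and 2 H4 genes. The variants at 0 were H1fnt, H1foo, H2afb1, H2afb2 and H2afb3, known from germ cells and named here after their values were seen. With 0 of 150518226 implied fragments over the 6 libraries, a count of 0 allows up to 3 fragments for such a gene (counting error only). Of the 18 genes at 0, 8 had fewer than 50% unique 50-base stretches over the whole transcript, and 7 of the 15 with transcript bases inside the authors' locus had fewer there, so reads that fit several copies may be missing from them.

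The variants were far more abundant, and 1 of the 8 tested fell in IL-15C. This was H2afv, which encodes a form of H2A.Z, the H2A variant placed at promoters. It stood at 22.1, 23.8 and 22.9 FPKM in IL-15C and at 27.4, 25.9 and 26.3 FPKM in IL-2C. The groups did not overlap, the means were 22.9 ± 0.835 and 26.5 ± 0.802 FPKM (SD, n = 3), and the log2 change was -0.20 ± 0.04 (limma adjusted p = 0.0343). The call was lost under median scaling and without any library other than IL-15C replicate 1. None of the 8 rose and 7 did not pass, beside 4.72% called lower and 1.72% higher over all tested genes. The median change was -0.14, against -0.04 over all tested genes. In 3 of the 8 (H2afv, H2afz and H3f3b) every IL-15C value lay below every IL-2C value, which held for 25.1% of all tested genes. The opposite held for 0 of the 8 and for 8.15% of all tested genes. Of the 8 estimates 7 were negative, H2afy being the exception, and 6 after median scaling, when H2afx also turned positive.

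H2afz, the main H2A.Z gene, was the most abundant histone gene, at 480, 519 and 521 FPKM in IL-15C and 592, 562 and 547 FPKM in IL-2C. Every IL-15C library was lower, but the log2 change of -0.16 ± 0.06 did not pass (limma adjusted p = 0.119). Only 30.4% of its 50-base stretches were unique, since most were shared with the model of Tmcc1, so its level is uncertain. The ratio of H2afz to H2afv was 20.8 to 22.8 over all libraries.

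H3f3a and H3f3b both encode H3.3, the H3 that is deposited outside replication. H3f3b stood at 276, 293 and 275 FPKM in IL-15C and at 373, 297 and 329 FPKM in IL-2C. The IL-15C values were all lower, though IL-15C replicate 2 lay just under IL-2C replicate 2, and the log2 change was -0.24 ± 0.08 (limma adjusted p = 0.0986). H3f3a stood at 373, 374 and 354 FPKM in IL-15C and at 398, 361 and 385 FPKM in IL-2C, with overlap and a log2 change of -0.05 ± 0.06 (limma adjusted p = 0.573). The ratio of H3f3a to H3f3b was 1.28 to 1.35 in the IL-15C libraries and 1.07 to 1.22 in the IL-2C libraries, with no overlap. This ratio was not tested.

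The other tested variants did not pass. H2afy, which encodes macroH2A, a variant with a large extra domain, stood at 126 ± 1.79 and 125 ± 6.84 FPKM (SD, n = 3). H2afj stood at 29.7 ± 2.68 and 32.3 ± 1.01 FPKM, and H2afx, the variant phosphorylated at DNA breaks, at 20.8 ± 1.58 and 21.2 ± 1.496 FPKM (SD, n = 3). H1f0, a linker histone known from non-dividing cells, stood at 2.15 ± 0.246 and 2.54 ± 0.263 FPKM (SD, n = 3). In these 4 genes the IL-15C and IL-2C libraries overlapped, and their log2 changes ran from -0.17 to 0.02. The 3 other detected variants, H2afy2, H2afy3 and H1fx, had means under 0.13 FPKM and were named after their values were seen.

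**Figure D5:**
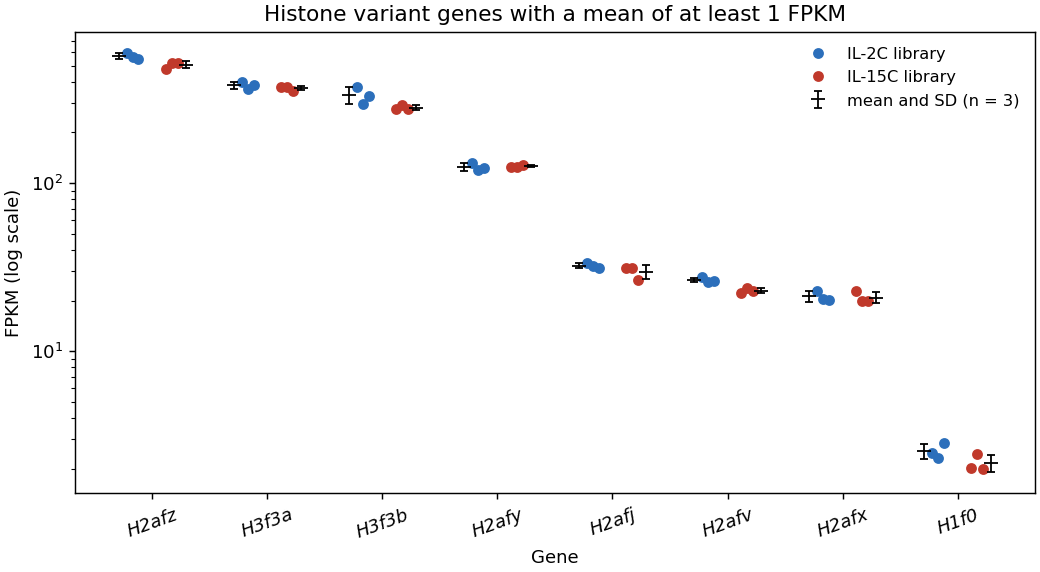
FPKM (log scale) of the 8 tested variant genes in each library (points), with mean and SD of the 3 libraries per group. H2afz is highest at 480 to 592 FPKM and H1f0 lowest at 1.99 to 2.83 FPKM; the groups lie apart in H2afv, H2afz and H3f3b.

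Together the variants added up to 1332, 1389 and 1350 FPKM in IL-15C and 1582, 1420 and 1464 FPKM in IL-2C. They held 96.9% to 97.5% of all histone FPKM. The 2 H3.3 genes held 99.7% to 99.8% of H3 FPKM and H2afz held 69.2% to 72.4% of H2A FPKM. Replication-dependent genes held 1.49% to 1.74% of H2A FPKM in IL-15C and 2.14% to 2.16% in IL-2C, without overlap. Among H1 genes the balance was different, with Hist1h1c at 48.3% to 61.1% and H1f0 at 27.2% to 33.4% of H1 FPKM. All 84 genes held 0.376% to 0.396% of the FPKM of a library in IL-15C and 0.410% to 0.432% in IL-2C. These shares describe RNA in the libraries, not protein, and would miss mRNA that the library protocol did not capture.

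Promoters were compared because Hist3h2a had the largest fitted change on the log2(FPKM + 1) scale; as a ratio of means Hist1h4c (1.72) and Hist1h2bc (1.59) exceeded it (1.51). RefSeq (GRCm38.p6) gave the window from 250 bases before to 50 after the start for 74 of the 84 members. That of Hist3h2a is chr11:58954435-58954734 (plus strand), shown with the octamer and the CCAAT motifs in capitals, and it runs into the locus of the neighbouring Hist3h2bb-ps.
Hist3h2a: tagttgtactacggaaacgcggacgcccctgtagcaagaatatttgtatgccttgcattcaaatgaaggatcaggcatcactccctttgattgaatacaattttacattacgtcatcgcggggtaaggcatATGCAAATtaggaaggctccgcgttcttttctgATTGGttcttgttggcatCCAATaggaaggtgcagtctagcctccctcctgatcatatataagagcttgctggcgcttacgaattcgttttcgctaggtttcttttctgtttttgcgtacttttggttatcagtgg

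The octamer, searched as ATTTGCAT or ATGCAAAT, was in 13 of 61 replication-dependent promoters (21.3%) and in 1.75% of all 27025 promoters. By family it was in 7 of 17 H2A and 6 of 16 H2B promoters and in none of the H1, H3 and H4 promoters. Beside Hist3h2a, the tested genes Hist3h2ba, Hist1h1c, Hist1h4c and Hist1h4i lacked it, and Hist2h2be and Hist1h2bc had no window. Whether the octamer goes with the change was not tested. CCAAT or ATTGG was in 52 of 61 replication-dependent promoters (85.2%), in 69.2% of variant promoters and in 37.9% of all. It was in every H1, H2A, H2B and H3 promoter and in 3 of 12 H4 promoters. TATAAA or TTTATA was in 57.4% of replication-dependent and 14.2% of all promoters. Each motif was searched on both strands, matches of different motifs can share bases, and neighbouring genes can share a window. The matches describe sequence and say nothing about binding.

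The factors that make, cut and carry histones gave no calls, beside 4.72% called lower and 1.72% higher over all tested genes. Whether these lists differ from all tested genes was not tested. Of 22 tested factors that transcribe, process or degrade replication-dependent histone mRNA, 0 rose and 0 fell (limma; 1 at an unadjusted p under 0.05), with a median log2 change of -0.02. Slbp, which encodes the stem-loop binding protein, stood at 45.9 ± 2.18 and 48.2 ± 2.40 FPKM (SD, n = 3; limma adjusted p = 0.422). Npat, which encodes a coactivator of histone transcription, stood at 5.48 ± 0.315 and 5.37 ± 0.253 FPKM (SD, n = 3; limma adjusted p = 0.803). Of 34 histone chaperones 0 rose and 0 fell (limma; 7 at an unadjusted p under 0.05), with a median of -0.06. Cenpa, the centromeric H3 variant that the symbol rule leaves out, measured 11.8, 12.6 and 11.8 FPKM in IL-15C and 14.9, 13.8 and 13.5 FPKM in IL-2C. It fell, with a log2 change of -0.20 ± 0.05 (limma adjusted p = 0.0474).

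Of 41 genes of DNA replication with values, 33 reached the limit for testing. Of these 33, 2 rose and 1 fell in IL-15C, and 30 did not pass. Their median log2 change was -0.08. Ccne1, the cyclin of S phase entry, rose by 0.40 ± 0.06 and Tk1, which salvages thymidine, by 0.27 ± 0.07 on the log2 scale (limma adjusted p = 0.0144 and 0.0462). Mcm7, a subunit of the replicative helicase, changed by -0.27 ± 0.05 (limma adjusted p = 0.019). Of 22 genes of mitosis only 6 reached the limit for testing, so most of this list was not tested. Of these 6, Top2a, which untangles chromosomes, rose from 4.54 ± 0.267 FPKM in IL-2C to 5.99 ± 0.147 FPKM in IL-15C (SD, n = 3). Its log2 change was 0.34 ± 0.05 (limma adjusted p = 0.0158). The other 5 did not pass, among them Mki67, the common marker of dividing cells. Mki67 stood at 3.55, 3.63 and 3.24 FPKM in IL-15C and at 2.57, 2.61 and 3.38 FPKM in IL-2C, with overlap (log2 change 0.22 ± 0.08, limma adjusted p = 0.137). Over all tested genes 1.72% were called higher and 4.72% lower, and most tested genes of these lists (30 of 33 and 5 of 6) did not pass. Cell cycle phase was not measured.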

How the data were processed

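RNA of sorted splenic NK cells was sequenced in 6 libraries, 3 IL-15C and 3 IL-2C, grouped by sample title. The mm10 genome, TopHat2 2.0.13 and Cufflinks 2.2.1 are named in the submitters' processing notes; the annotation and any poly(A) selection are not given in the sources used here. Per the file headers, the authors deposited FPKM values with interval bounds for each library and a further table of group FPKM values. Because FPKM values are not counts, no count test was used.

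Rows sharing a symbol were summed (280 genes) and 10 genes with failed estimates were left out, none a histone gene. Taking each interval bound as 2 Poisson SD from its estimate gave the implied fragments; 29.4% to 31.3% of rows with 5 to 200 of them came within 0.02 of a whole number. Limma 3.58.1 (R 4.3.3) with an intensity trend was fitted, two-sided, to log2(FPKM + 1) for the 9831 genes with a mean of at least 1 FPKM over the 6 libraries, with Benjamini-Hochberg adjustment and a threshold of 0.05. It was tested on simulated data. Python 3.11.15 with pandas 2.3.3 was used for tables. Stem-loops, poly(A) signals and the share of 50-base stretches found in no other gene came from GENCODE M21 transcripts. Promoters came from RefSeq.

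Alternatives were other pseudocounts (0.1, 5), filters, scalings, implied fragments, length and GC trends, no trend, array weights, a replicate block and leaving out each library. Every histone gene with a mean of at least 1 FPKM may be named, and called genes of the related lists with Slbp, Npat and Mki67. The members and lists were chosen with earlier results of these data known.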

Additional observations from a re-analysis of the deposited data

How the results depend on the processing

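Of the 15 tested histone genes, none that passed changed sign under any alternative. Over all tested genes the counts lower and higher, 464 and 169, became 9 and 6 with no filter, 207 and 325 with median scaling, 269 and 307 with quantile normalization, 280 and 340 with length and GC trends removed (covering 96.2% of tested genes), and 1667 and 440 with array weights. They ran from 15 to 575 lower and from 14 to 176 higher when a library was left out. The 4 replication-dependent genes called lower became 0 with no filter, 1 at a mean of at least 5 FPKM (where only Hist3h2a is tested), 2 with median scaling, 1 with quantile normalization and 2 with implied fragments. Leaving out a library gave 1 to 5 (5 when IL-15C replicate 1 was omitted, 2 when replicate 2 of that group was, 1 for any of the other 4). Hist3h2a passed in all 6 omissions (limma adjusted p 0.000746 to 0.0167) and in 11 of 12 other settings, and missed with no filter (adjusted p = 0.0503). The 1 variant called lower became 0 with no filter, median scaling, quantile normalization or length and GC trends removed, 2 with implied fragments, and 0 to 1 over the omissions (1 only without IL-15C replicate 1). Hist3h2ba passed with array weights (limma adjusted p = 0.00894) and without IL-15C replicate 1 (0.0177), Hist1h2bc with array weights (0.0202) and without the trend (0.0478), and H3f3b with implied fragments (0.0484). No histone gene was called higher in any setting. The cause of these changes was not tested. With the replicate block 2 replication-dependent genes and 0 variants were lower. Deviations of same-numbered libraries correlated at -0.029, -0.16 and -0.024, and those of other pairs at -0.14 to 0.18. They gave no sign that the numbers pair the libraries, but with 3 libraries per group they cannot exclude it. The 61 replication-dependent genes under 1 FPKM rest on 147 to 217 implied fragments per library in all, and many share sequence with other copies.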
